A study of Homo sapiens with 4 samples.

Results

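Ribosome-protected fragments were compared between HEK293 cells labelled wild type that had received erythromycin and wild type cells that had not. HEK293 is an established human embryonic kidney line, and Ribo-seq sequences the mRNA pieces that ribosomes cover. The members were all transcripts with a value above 0 in at least one of these 2 libraries, 15473 of the 16292 transcripts found in the 4 libraries of the series. There was 1 library in each group, so no difference below has a replicate check and none carries a p-value.

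Both groups came from HEK293 stable lines that express a GFP control, wild type RPL4 or the Δloop form of RPL4, from which a loop was removed. The protocol has such lines infected with lentiviruses that carry an shRNA against RPL4 or a scramble control. The genotype label of both libraries is wild type, and they differ in the treatment label, erythromycin or no erythromycin. The labels do not say which stable line, which shRNA, which ribosome inhibitor before harvest (the protocol names cycloheximide and lactimidomycin) or which dose and time of erythromycin a library had. The other 2 libraries are the same treatment pair in cells labelled RPL4 mutant.

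Erythromycin is a macrolide antibiotic that binds in the peptide exit tunnel of the bacterial large ribosomal subunit, where it interferes with the elongation of some nascent chains. The cytosolic ribosome of human cells is regarded as largely insensitive to macrolides. The ribosome of mitochondria is of bacterial descent and makes only subunits of the respiratory chain and of ATP synthase. Whether erythromycin acted on mitochondrial ribosomes in these cells was not tested. RPL4, a protein of the large subunit, reaches into the exit tunnel of the cytosolic ribosome with a long loop.

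The deposited values are RPKM, reads scaled to the length of the coding sequence and to the size of the library, and the reads behind them were recovered: 2965243 reads in the untreated library and 2555613 in the erythromycin library. A gene was tested where its mean over both libraries was at least 5 RPKM, which 9231 transcripts passed and 6242 did not. The tested genes held a median of 113 and 96 reads. Each gene's log2 ratio of erythromycin over none was computed on RPKM + 1 and centred on the median of the tested genes. The numbers in square brackets after a ratio are the 95% counting interval from the reads, which covers counting error only. The interval is that of the read ratio without the added 1 RPKM, so at low RPKM the printed ratio can sit off its centre. Footprints alone were measured, so a change of mRNA level and a change of its translation cannot be told apart, and in bulk cells neither can fewer cells of a type and less RNA per cell.

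Of the 11 markers of the kidney line, 7 reached 5 RPKM in both libraries, with VIM at 964 RPKM without and 1100.4 RPKM with the drug. SOX2 was among the 7, at 38.5 RPKM without and 22.1 RPKM with the drug. Below 5 RPKM were PAX2 (2.69 without and 1.87 with), LHX1 (4.14 without and 3.20 with), NEFM (0.61 without and 0.14 with) and L1CAM (0.45 without and 0.93 with). Markers of other cell types were mostly low. PTPRC and CD3E of leukocytes, HBA1 and HBA2 of erythroid cells and KRT5 of keratinocytes had no reads in either library. In both libraries 2 of 8 leukocyte markers (LCP1 with 116 and 106 reads, CORO1A at 9.73 RPKM without and 11.9 RPKM with the drug) and 1 of 5 keratinocyte markers (KRT10 at 27.9 RPKM without and 26.1 RPKM with the drug) reached 5 RPKM, and COL1A1 of fibroblasts stood at 6.68 RPKM without and 4.10 RPKM with the drug. The summed level went from 31.2 to 36.4 RPKM for the leukocyte list, from 28.1 to 26.3 for the keratinocyte list and from 7.72 to 5.37 for the fibroblast list. RPL4 itself, at chr15:66498015-66524532 on the minus strand, stood at 2515 RPKM without and 2586 RPKM with the drug (9576 and 8486 reads), a log2 ratio of 0.05 [0.01, 0.10]. RPL4 footprints were thus about equal in both libraries, and reads of the endogenous gene and of an introduced RPL4 copy were not separated.

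Most genes stayed near the median: 8103 of the 9231, or 87.8%, lay within 1.5-fold. At least 2-fold higher with erythromycin were 136 genes, 1.47% of those tested, and at least 2-fold lower were 141 genes, 1.53%. Beyond 4-fold lay 27 genes on the high side and 7 on the low side. The counting interval lay above 0 for 1313 genes, 14.2% of those tested, and below 0 for 1316 genes, 14.3%. Centring on the median put 50% of tested genes above 0 and 50% below. These shares are the background for every count of list members below. Among the best-read quintile of genes, where the interval is narrow, the shares were 26.4% above and 23.2% below. These are the closer background for lists of well-read genes. Genes beyond 2-fold were mostly thinly read, with a median of 67 reads over both libraries against 210 for all tested genes.

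**Figure D1:**
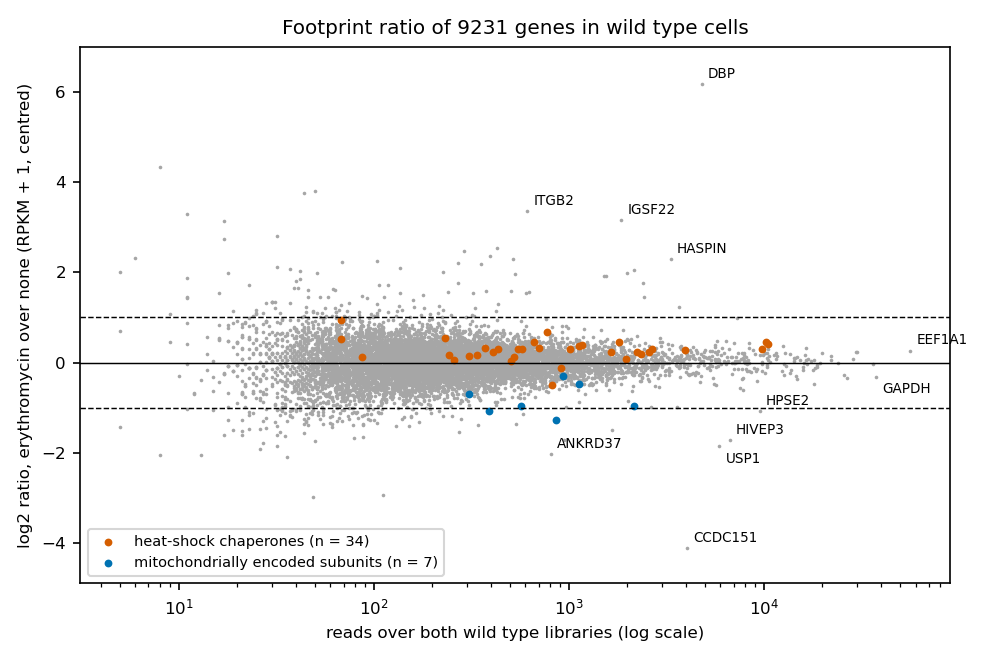
Log2 ratio of erythromycin over none (RPKM + 1, centred) against the reads over both wild type libraries (log scale), 1 point a tested gene, with 34 heat-shock chaperones in orange and 7 mitochondrially encoded subunits in blue. Dashed lines mark 2-fold; the cloud narrows with reads, DBP stands at 6.17 and CCDC151 at −4.11.

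The mitochondrially encoded subunits were lower with erythromycin as a group. The files held 7 of the 13 proteins that mitochondrial DNA encodes, and all 7 were tested, lay below 0 and had an interval below 0. Their median log2 ratio was −0.96, and their footprints summed to 4278 reads without and 2085 with the drug. Each is translated inside mitochondria from the first codon of the coding sequences printed here (GRCh38), which are shown because they are the transcripts that mitochondrial ribosomes translate. Capitals mark the first codon, and MT-ND5 opens with ATA, an isoleucine codon of the standard code that mitochondria read as methionine.
MT-CO1: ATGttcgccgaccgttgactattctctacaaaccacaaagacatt
MT-CO2: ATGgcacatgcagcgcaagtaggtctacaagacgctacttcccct
MT-ATP8: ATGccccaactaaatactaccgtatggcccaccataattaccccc
MT-ATP6: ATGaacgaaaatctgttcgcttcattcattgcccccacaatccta
MT-ND4L: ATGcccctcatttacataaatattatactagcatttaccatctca
MT-ND5: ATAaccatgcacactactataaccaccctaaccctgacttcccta
MT-ND6: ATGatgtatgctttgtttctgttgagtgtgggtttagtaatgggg
These stretches run over chrM:5904-5948, chrM:7586-7630, chrM:8366-8410, chrM:8527-8571, chrM:10470-10514 and chrM:12337-12381 on the plus strand and chrM:14629-14673 on the minus strand. All lie in coding sequence. MT-ATP8 and MT-ATP6 overlap, so reads in the overlap cannot be assigned to one of them.

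MT-CO2, a core subunit of cytochrome c oxidase, had 314 RPKM without and 128 RPKM with the drug (636 and 224 reads), a log2 ratio of −1.27 [−1.50, −1.06]. MT-CO1, the catalytic subunit of the same complex, had 331 RPKM without and 166 RPKM with the drug (1512 and 655 reads), a ratio of −0.98 [−1.11, −0.85]. MT-ND4L of complex I had 316 RPKM without and 149 RPKM with the drug (278 and 113 reads), a ratio of −1.07 [−1.40, −0.75]. In all 3 the erythromycin library was the low one, at or near the 2-fold line. MT-ATP6, the proton channel subunit of ATP synthase, had 196 RPKM without and 98.8 RPKM with the drug (395 and 172 reads), a ratio of −0.96 [−1.24, −0.71]. MT-ATP8, its small neighbour, had 327 RPKM without and 200.4 RPKM with the drug (201 and 106 reads), a ratio of −0.69 [−1.05, −0.35]. The remaining members are complex I subunits, both nearer to 0. MT-ND5 had 130.5 RPKM without and 93.3 RPKM with the drug (701 and 432 reads), a ratio of −0.47 [−0.65, −0.30]. MT-ND6, the member encoded on the other DNA strand, had 357 RPKM without and 285 RPKM with the drug (555 and 383 reads), a ratio of −0.31 [−0.50, −0.12]. The intervals of MT-ND5 and MT-ND6 did not overlap those of MT-CO1, MT-CO2 and MT-ND4L. By complex, the median was −1.12 for the 2 subunits of cytochrome c oxidase, −0.83 for the 2 of ATP synthase and −0.47 for the 3 of complex I.

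The same 7 transcripts did not share a direction in the mutant pair. There MT-CO1 stood at −0.42 and MT-ND5 at −0.67, while MT-ND6 stood at 0.64, MT-ATP8 at 0.81 and MT-ND4L at 1.12, each with an interval clear of 0. MT-CO2 and MT-ATP6 had intervals that span 0. Over all 9231 genes the interval of the mutant pair lay above 0 in 7.01% and below 0 in 7.57%. The mutant libraries were shallower, with 604506 and 993461 reads. Mitochondrial transcripts also have nuclear copies, and the counting of reads that match both is not given in the sources used here.

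Subunits of the respiratory chain that the nucleus encodes were also lower, by less. Of 73 tested, 55 lay below 0 and 18 above, with a median of −0.17. The interval lay below 0 for 37 of them, or 50.7%, against 14.3% of all tested genes and 23.2% of the best-read quintile. It lay above 0 for 5. All 4 subunits of complex II and all 7 tested subunits of complex III lay below 0, with medians of −0.19 and −0.24. In complex I 24 of 35 lay below 0, in cytochrome c oxidase 8 of 11 and in ATP synthase 12 of 16. None of the 73 reached 2-fold. From here on, 2 RPKM values in parentheses give the untreated library first, and the log2 ratio with its interval follows.

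**Figure D2:**
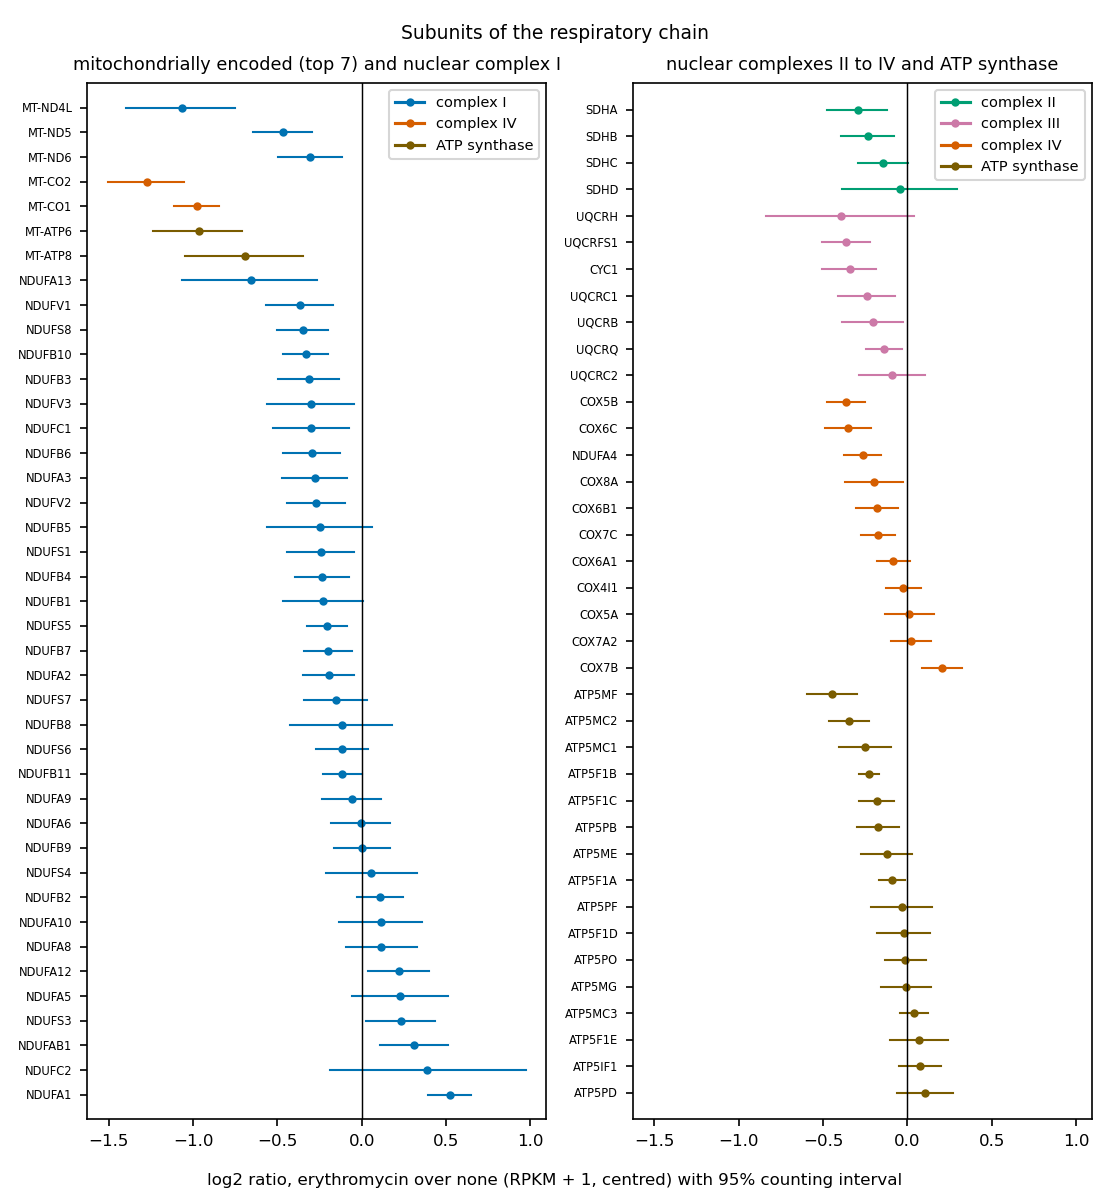
Log2 ratio of erythromycin over none (RPKM + 1, centred) with its 95% counting interval for each of the 7 mitochondrially encoded and nuclear-encoded respiratory subunits, by complex, with 1 of the 73 tested nuclear members not drawn. The mitochondrially encoded members lie between −1.27 and −0.31, and the nuclear-encoded ones lie around a median of −0.17.

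ATP5F1B, the catalytic beta subunit of ATP synthase, stood at 1240.2 RPKM without and 1049 RPKM with the drug (5847 and 4263 reads), a log2 ratio of −0.23 [−0.29, −0.17]. Its partner ATP5F1A stood at −0.09 [−0.17, −0.01] and ATP5MC3, a gene for the rotating c-ring, at 0.04 [−0.04, 0.12], an interval that spans 0. In complex I, NDUFA13 (113 and 70.8 RPKM, −0.66 [−1.07, −0.27]) was the lowest member. On the other side of 0, and well read, was NDUFA1 (1412 and 2008 RPKM, 0.52 [0.39, 0.65]), an accessory subunit of complex I. COX6A1 and COX5B of cytochrome c oxidase stood at −0.08 and −0.36 [−0.48, −0.25], and COX7B of the same complex at 0.20. UQCRFS1, the iron-sulfur subunit of complex III, stood at −0.36 [−0.51, −0.22], and SDHA, the flavoprotein of complex II, at −0.29 [−0.48, −0.12].

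The factors that build these complexes had a median nearer to 0. The 43 tested assembly factors had a median of −0.01, with 21 above 0 and 22 below, and an interval below 0 in 10 (23.3%) and above 0 in 3 (6.98%). The 79 proteins of the mitochondrial ribosome had a median of −0.03, with an interval above 0 in 9 and below 0 in 12, near the background shares. The mitochondrial translation factors lay lower, at a median of −0.23 with 13 of 17 below 0, though the interval lay below 0 for 4. TUFM, the mitochondrial elongation factor Tu, is the best read of them at 246 RPKM without and 206 RPKM with the drug (−0.24 [−0.38, −0.10]). MTRF1, a release factor family member, was lowest at −1.03 [−2.15, −0.30], on 40 and 15 reads. Mitochondrial chaperones and proteases had a median of −0.08 over 20 genes, with HSPD1, the HSP60 chaperonin, at −0.03 [−0.10, 0.05] and the matrix protease LONP1 at −0.43 [−0.67, −0.21]. MCU, the pore of the mitochondrial calcium uniporter, was among the 12 transcripts with the lowest intervals of all: 129 RPKM without and 48.9 RPKM with the drug (405 and 132 reads), a log2 ratio of −1.37 [−1.68, −1.10]. In the mutant pair MCU stood at 53.3 and 51.5 RPKM.

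Cytosolic heat-shock chaperones were higher with erythromycin as a family. Of 34 tested members, 32 lay above 0. The interval lay above 0 for 22, or 64.7%, against 14.2% of all tested genes and 26.4% of the best-read quintile. HSPB1 alone had an interval below 0. The median was 0.30, or 0.26 when genes were centred within quintiles of GC content, and the size was modest throughout: no member reached 2-fold. Their footprints made up 1.01% of reads in the untreated library and 1.25% in the erythromycin library.

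HSPA8, the constitutive HSP70 that assists folding during and after translation, stood at 825 RPKM without and 1114 RPKM with the drug (4748 and 5526 reads), a log2 ratio of 0.45 [0.39, 0.50]. The stress-inducible copies HSPA1A and HSPA1B stood at 0.30 [0.03, 0.59] and 0.67 [0.47, 0.89]; they are near-identical, so their reads may have been split between them. All 8 tested HSP70 family members lay above 0, with a median of 0.37, from 0.05 for HSPA4L to 0.95 for HSPA2, the latter on 24 and 44 reads. HSP90AB1 stood at 759 RPKM without and 1006 RPKM with the drug (4895 and 5592 reads), a log2 ratio of 0.42 [0.36, 0.48], and its inducible sister HSP90AA1 stood at 625 RPKM without and 762 RPKM with the drug (0.30 [0.24, 0.36]). These are the cytosolic HSP90 proteins, which mature kinases and receptors. Their helpers stood close by: FKBP4 at 0.28 [0.19, 0.37], the ATPase activator AHSA1 at 0.39 [0.22, 0.56] and the p23 protein PTGES3 at 0.30 [0.19, 0.41]. UNC45A, a myosin chaperone, lay on the other side at −0.11 [−0.31, 0.08]. The J-domain and nucleotide exchange partners, which drive the HSP70 cycle, lay above 0 in 10 of 10, with the interval above 0 in 8. DNAJA1 stood at 0.45 [0.31, 0.58] and DNAJB1, a textbook heat-shock gene, at 178 RPKM without and 227 RPKM with the drug (0.36 [0.19, 0.54]), whereas BAG3, also strongly heat-inducible, stood at 52.7 RPKM without and 53.2 RPKM with the drug (0.03 [−0.23, 0.28]). HSPB1, a small heat-shock protein, stood at 279.9 RPKM without and 196 RPKM with the drug (−0.50 [−0.71, −0.29]). The heat-shock factors HSF1 and HSF2 themselves both lay at 0.16, each with an interval that spans 0.

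The heat-shock element was searched in the 250 bases before each RefSeq gene start (GRCh38.p14) on both strands as TTC, 2 bases of any kind, GAA, 2 bases of any kind and TTC. It was found in 0.441% of 35116 windows, and in 5 of the 29 heat-shock chaperone genes that had a window. Those 5 were HSPA8, HSP90AA1, HSP90AB1, CHORDC1 and DNAJB6, with a median of 0.30, equal to that of the members without a match. HSP90AB1 has 2 matches, starting 165 and 112 bases before its start, and part of its window is printed because it is the best-read member of the family. Capitals mark the matches in this stretch of chr6:44247693-44247865 on the plus strand, the 173 bases of the window that GENCODE annotates as no exon. They lie inside the longer annotated gene, in an intron, and end next to an exon that starts at the following base.
HSP90AB1: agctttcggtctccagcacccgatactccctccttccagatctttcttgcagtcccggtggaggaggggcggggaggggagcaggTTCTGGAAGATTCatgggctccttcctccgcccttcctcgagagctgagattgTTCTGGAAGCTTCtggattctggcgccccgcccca
Over all tested genes 29 held the element, with a median of 0.22, the interval above 0 in 9 and below 0 in 2. A match is a description of letters and not a binding site.

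The chaperonin CCT, the ring that folds actin and tubulin, lay above 0 in all 8 subunits, with a median of 0.15 and an interval above 0 in 6. CCT7 had 759 RPKM without and 878 RPKM with the drug (0.22 [0.16, 0.29]), the best read of them. Prefoldin, which hands substrates to CCT, had a median of 0.01 and no interval on either side of 0. Of the nascent chain factors BTF3, a subunit of the complex that meets chains leaving the tunnel, stood at 0.10 [0.02, 0.18] and DNAJC2, a ribosome-bound J-domain protein, at 0.52 [0.21, 0.86].

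**Figure D3:**
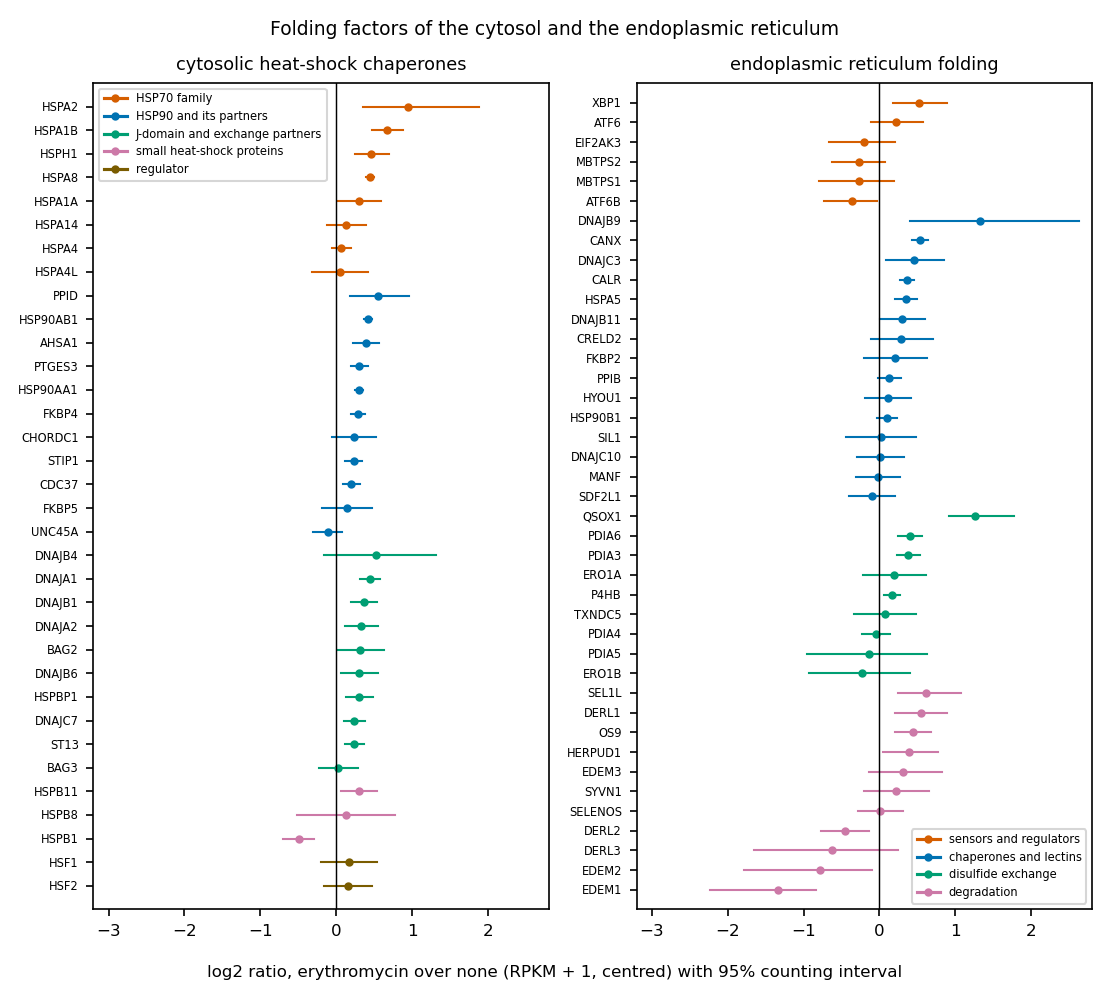
Log2 ratio of erythromycin over none (RPKM + 1, centred) with its 95% counting interval for 34 cytosolic heat-shock chaperones (left) and 41 folding genes of the endoplasmic reticulum (right), coloured by role. On the left 32 of 34 points lie above 0 with HSPB1 below; on the right the chaperones and lectins lie mostly above 0 while sensors and degradation genes lie on both sides.

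Folding genes of the endoplasmic reticulum were higher in part. Of 41 tested, 28 lay above 0, the interval lay above 0 for 15 (36.6%) and below 0 for 4, and the median was 0.17. Among the chaperones and lectins 13 of 15 lay above 0. CANX and CALR, the lectins that hold glycoproteins until they fold, stood at 248 RPKM without and 357 RPKM with the drug (0.54 [0.43, 0.64]) and at 480.3 RPKM without and 614 RPKM with the drug (0.37 [0.27, 0.46]). HSPA5 stood at 131 RPKM without and 165 RPKM with the drug (762 and 827 reads), a log2 ratio of 0.34 [0.20, 0.49]; HSPA5 is BiP, the HSP70 of the compartment. HSP90B1, its HSP90, stood at 134 RPKM without and 143 RPKM with the drug (0.10 [−0.03, 0.24]), an interval that spans 0. Among disulfide enzymes PDIA6 stood at 0.40 [0.25, 0.56], P4HB at 0.17 [0.06, 0.28] and the oxidase QSOX1, at 10.2 and 25.6 RPKM, at 1.26 [0.92, 1.78]. The sensors lay on both sides: 4 of 6 lay below 0, with EIF2AK3 at −0.20 [−0.66, 0.21] and ATF6B at −0.36 [−0.73, −0.03], while XBP1, the transcription factor of the IRE1 arm, stood at 36.4 RPKM without and 52.2 RPKM with the drug (0.52 [0.18, 0.89]). Degradation genes split, from SEL1L at 0.62 [0.24, 1.07] to EDEM1 at −1.34 [−2.23, −0.84], the latter with 80 and 24 reads. The 37 genes of signal recognition and translocation had a median of 0.07.

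The endoplasmic reticulum stress element was searched as CCAAT, 9 bases of any kind and CCACG, on both strands of the same windows. It occurred in 0.0740% of them, and in 8 of the 38 listed genes with a window. The median was 0.36 in the 8 genes with the element (XBP1, HSPA5, HSP90B1, CALR, CANX, CRELD2, PDIA6 and ERO1B) and 0.09 in the other 30. Over all tested genes 12 held it, with a median of 0.25, the interval above 0 in 5 and below 0 in none. The windows of HSPA5 (chr9:125241344-125241593, minus strand) and CALR (chr19:12938359-12938577, plus strand, the 219 bases outside exons) are shown with the match in capitals. In CALR the match runs on the opposite strand.
HSPA5: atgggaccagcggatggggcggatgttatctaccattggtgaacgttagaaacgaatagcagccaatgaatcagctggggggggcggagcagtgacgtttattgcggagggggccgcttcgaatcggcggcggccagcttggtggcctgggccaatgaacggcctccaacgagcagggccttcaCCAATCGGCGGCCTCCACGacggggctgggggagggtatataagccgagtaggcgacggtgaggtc
CALR: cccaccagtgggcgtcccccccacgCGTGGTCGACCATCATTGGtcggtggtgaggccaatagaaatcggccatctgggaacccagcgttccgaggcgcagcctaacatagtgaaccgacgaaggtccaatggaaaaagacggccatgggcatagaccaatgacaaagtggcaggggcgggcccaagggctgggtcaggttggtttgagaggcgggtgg

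The integrated stress response, in which translation of ATF4 follows phosphorylation of the initiation factor eIF2, split by role. Of 14 tested regulators 10 lay above 0, the interval lay above 0 for 6 and below 0 for none, and 3 were at least 2-fold higher. DDIT3 stood at 15.7 RPKM without and 53.4 RPKM with the drug (27 and 79 reads), a log2 ratio of 1.71 [1.13, 2.46]; DDIT3 (CHOP) is a transcription factor downstream of ATF4. ATF3 stood at 47.6 RPKM without and 107 RPKM with the drug (1.16 [0.77, 1.60]), and PPP1R15A (GADD34), the phosphatase subunit that reverses the response, stood at 14.7 RPKM without and 31.3 RPKM with the drug (88 and 162 reads, 1.06). ATF4 itself stood at 166 RPKM without and 208 RPKM with the drug (0.34 [0.16, 0.51]). Amino acid transporters lay above 0 in 6 of 7, among them SLC3A2, the heavy chain of several exchangers, at 72.2 RPKM without and 122 RPKM with the drug (0.76 [0.58, 0.95]), and the glutamine carrier SLC1A5 at 0.24 [0.11, 0.36]. The biosynthetic enzymes, also ATF4 targets, lay on the other side of 0: 9 of 11 lay below 0, none had an interval above 0 and 3 had one below. ASNS, asparagine synthetase, stood at 132 RPKM without and 104 RPKM with the drug (−0.34 [−0.52, −0.16]), PCK2 at 13.5 RPKM without and 5.70 RPKM with the drug (−1.10 [−1.91, −0.59]) and the serine enzymes PHGDH and PSAT1 at 0.06 [−0.05, 0.17] and 0.10 [−0.04, 0.24].

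Immediate early and stress-induced genes, which cells switch on within minutes of a stimulus, were higher in 30 of 38, with a median of 0.17. At least 2-fold higher were 8 of them and at least 2-fold lower 2, against 1.47% and 1.53% of all tested genes. GADD45B stood at 31.1 RPKM without and 177 RPKM with the drug (49 and 240 reads), a log2 ratio of 2.48 [2.07, 2.99]. GADD45B, GADD45A and GADD45G are small growth arrest proteins, and the other members stood at 1.06 [0.73, 1.41] and 1.03 [0.34, 1.84]. ZFP36, which speeds decay of cytokine mRNAs, stood at 5.40 RPKM without and 16.5 RPKM with the drug (1.46 [0.76, 2.55]) and IER2 at 54.7 RPKM without and 111 RPKM with the drug (1.02 [0.68, 1.38]). Lower were MAFF, a small Maf protein, at 67.4 RPKM without and 24.5 RPKM with the drug (−1.41 [−2.08, −0.85]) and KLF2 at −1.17 [−2.78, −0.22]. The best-read members lay nearer to 0, with JUN at 0.23 [0.04, 0.43], MCL1 at 0.08 [−0.12, 0.29] and DUSP1 at 0.13 [−0.10, 0.36].

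DBP had the largest ratio among transcripts with at least 50 reads. This transcription factor of the PAR-bZIP family, an output of the circadian clock, lies at chr19:48630030-48637438, minus strand (GRCh38). It stood at 25.5 RPKM without and 1894 RPKM with the drug on 74 and 4735 reads, a log2 ratio of 6.17 [5.90, 6.58]. BHLHE41, a repressor that the clock drives, was at 37.5 RPKM without and 72.4 RPKM with the drug (0.94 [0.68, 1.25]). NFIL3, a repressor at the same promoter element, stood at 0.69 on 29 and 42 reads, and TEF, a close relative of DBP, at −1.79 [−4.29, −0.75] on 23 and 4 reads. The 6 tested genes of the negative limb (repressors of the clock loop and factors that act on them, such as the kinase CSNK1D) all lay above 0, but the interval lay above 0 in 1 of them, 16.7%, near the background. They include CRY1 at 13.8 RPKM without and 25.6 RPKM with the drug (0.86 [0.47, 1.35]) and PER1 at 0.12 [−0.31, 0.57]. The activators of the loop were below the level tested. In both mutant libraries DBP was high, at 4359 and 5624 RPKM, so the untreated wild type library is the low one of 4.

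The same windows were searched on both strands for 5 other elements, and in each listed group the genes with a match had the lower median. The cyclic AMP response element (TGACG then TCA, 1.65% of windows) was in 4 of 29 immediate early genes, with medians of −0.11 with and 0.23 without it. The E-box (CACGTG, 6.34% of windows) was in 5 of 9 clock genes, with medians of 0.17 with and 0.77 without it. The amino acid response element (TGATG, any base, AA, 3.14% of windows) was in 6 of 26 integrated stress response genes, with medians of 0.14 with and 0.22 without it. The D-box (TTATG, any base, AA, 3.03% of windows) was in 2 of 9 clock genes, with medians of 0.15 with and 0.69 without it. The hypoxia response element (TACGTG, 2.76% of windows) was in 6 of 24 hypoxia-inducible genes, with medians of −0.04 with and 0.17 without it. Over all tested genes the order was not the same for all 5. Medians with and without a match were 0.003 and 0.004 for the cyclic AMP element and −0.006 and 0.005 for the E-box. They were −0.04 and 0.006 for the amino acid element. Genes with the D-box (157) or the hypoxia element (289) had the higher median, 0.03 against 0.003 and 0.06 against 0.001. With the hypoxia element the interval lay above 0 in 22.8% and below 0 in 12.1%.

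**Figure D4:**
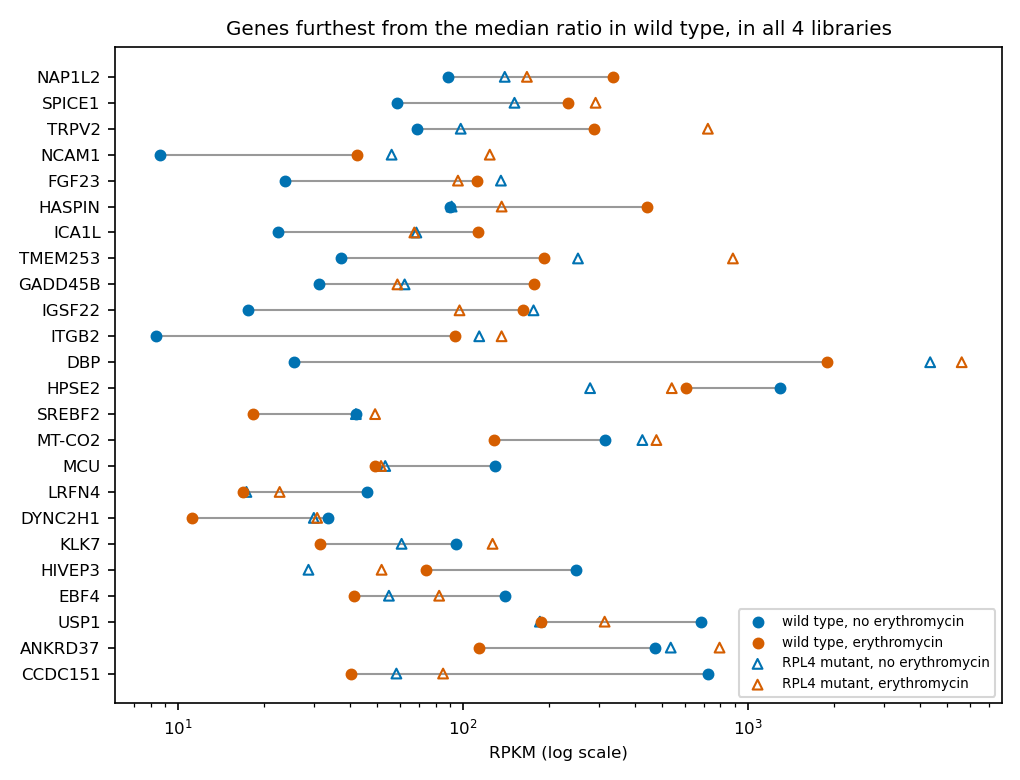
RPKM (log scale) of the 24 transcripts with the highest and the lowest counting intervals in the untreated and the erythromycin library of wild type cells, with the 2 mutant libraries beside them. For all 12 with the highest intervals, such as DBP, ITGB2 and IGSF22, the untreated wild type library is the lowest of the 4. For CCDC151, USP1, HIVEP3 and HPSE2, among others, it is the highest.

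For all 12 transcripts with the highest intervals, DBP among them, the untreated wild type library was the lowest of the 4. These transcripts were picked by a ratio that has this library as its denominator. ITGB2, the beta chain of leukocyte integrins (chr21:44885953-44931989, minus strand), had 8.32 RPKM without and 93.8 RPKM with the drug (57 and 554 reads), a ratio of 3.36 [3.11, 3.93], and 114 and 136 RPKM in the mutant pair. IGSF22, an immunoglobulin-domain gene, had 17.5 RPKM without and 163 RPKM with the drug (3.16 [3.02, 3.44]), and 177 and 97.1 RPKM in the mutant pair. HASPIN, the kinase that phosphorylates histone H3 in mitosis (chr17:3723903-3726699, plus strand), had 89.6 RPKM without and 440.1 RPKM with the drug (637 and 2696 reads), a ratio of 2.30 [2.18, 2.44], and 91.1 and 136 RPKM in the mutant pair. HASPIN was thus highest in the wild type library with the drug, and its ratio in the mutant pair was 0.53 [0.24, 0.84]. TRPV2, a cation channel, had 69.1 RPKM without and 287 RPKM with the drug (2.05 [1.92, 2.22]), and TMEM253 37.1 RPKM without and 193 RPKM with the drug (2.36 [2.02, 2.78]). Both were also higher with than without the drug in the mutant pair, at 98.0 and 723 RPKM for TRPV2 and 253 and 885 RPKM for TMEM253. The other transcripts chosen for their high intervals were GADD45B, given above, ICA1L (2.30 [2.03, 2.69]), the adhesion molecule NCAM1 (2.19 [1.92, 2.71]), SPICE1 of the spindle (1.99 [1.85, 2.16]), the phosphate hormone FGF23 (2.21 [1.82, 2.72]) and NAP1L2 (1.92 [1.76, 2.11]). In the mutant pair NCAM1 (1.08 [0.75, 1.45]), SPICE1 (0.89 [0.68, 1.11]) and DBP (0.32 [0.25, 0.39]) also had intervals above 0. Those of IGSF22 (−0.91 [−1.12, −0.71]) and FGF23 (−0.55 [−1.06, −0.04]) lay below 0. Those of ITGB2, GADD45B, ICA1L and NAP1L2 spanned 0.

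On the low side CCDC151, a docking protein of ciliary dynein arms (chr19:11420604-11435782, minus strand), had 724 RPKM without and 40.5 RPKM with the drug (3837 and 185 reads), a ratio of −4.11 [−4.37, −3.93]. In the mutant pair it had 58.3 and 85.0 RPKM, so the untreated wild type library was high. USP1, the deubiquitinase of the Fanconi pathway (chr1:62436297-62451804, plus strand), had 686 RPKM without and 187 RPKM with the drug (4795 and 1126 reads), a ratio of −1.86 [−1.96, −1.77], and 186 and 314 RPKM in the mutant pair. Its substrates and partner did not share this: FANCD2 stood at 0.10 [−0.19, 0.40], FANCI at 0.11 [−0.06, 0.29] and the cofactor WDR48 at −0.05 [−0.39, 0.29]. HIVEP3, a zinc finger transcription factor, had 248 RPKM without and 74.3 RPKM with the drug (5319 and 1371 reads), a ratio of −1.72 [−1.82, −1.64], and 28.6 and 51.7 RPKM in the mutant pair. HPSE2, a heparanase relative, had 1289.8 RPKM without and 604 RPKM with the drug (6804 and 2744 reads), a ratio of −1.08 [−1.15, −1.02], and 279 and 539.8 RPKM in the mutant pair. ANKRD37, a hypoxia-inducible ankyrin protein, had 471 RPKM without and 114 RPKM with the drug (−2.03 [−2.31, −1.77]), and 535 and 794 RPKM in the mutant pair, where the order of the libraries was the opposite. The rest of the 12 lowest were EBF4 (−1.73 [−1.99, −1.52]), the ciliary motor DYNC2H1 (−1.50 [−1.75, −1.41]), KLK7 (−1.55 [−2.01, −1.16]), LRFN4 (−1.39 [−1.81, −1.07]), MCU, MT-CO2 and SREBF2.

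SREBF2, the master regulator of cholesterol synthesis, had 41.9 RPKM without and 18.3 RPKM with the drug (426 and 160 reads), a ratio of −1.14 [−1.46, −0.92], and its sister SREBF1 had 13.4 RPKM without and 5.98 RPKM with the drug (−1.03 [−1.63, −0.68]). The cholesterol enzymes as a set stayed near 0, with a median of 0.01 and 10 of 20 on each side. IDI1 stood highest at 154 RPKM without and 245 RPKM with the drug (0.68 [0.50, 0.88]), HMGCS1, an early enzyme of the pathway, stood at 0.46 [0.31, 0.61], and TM7SF2 was lowest at −1.67 [−2.78, −1.04]. Of the 8 fatty acid enzymes 7 lay below 0, with 4 intervals below. FASN, the fatty acid synthase, stood at 110.0 RPKM without and 91.1 RPKM with the drug (−0.26 [−0.35, −0.17]) and the desaturase SCD at 296 RPKM without and 232 RPKM with the drug (−0.34 [−0.49, −0.19]).

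Hypoxia-inducible genes lay above 0 in 20 of 27 with a median of 0.15, and ANKRD37 was their lowest member. The interval lay above 0 in 7 (25.9%, against 14.2% of all tested genes) and below 0 in 3 (11.1%, against 14.3%). Their summed reads gave a log2 ratio of 0.04 [−0.01, 0.08], an interval that spans 0. NDRG1 stood highest at 40.1 RPKM without and 70.7 RPKM with the drug (0.81 [0.52, 1.15]), and LDHA, PGK1 and HIF1A stood at 0.05 [−0.03, 0.12], 0.15 [0.06, 0.24] and −0.29 [−0.54, −0.07].

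**Figure D5:**
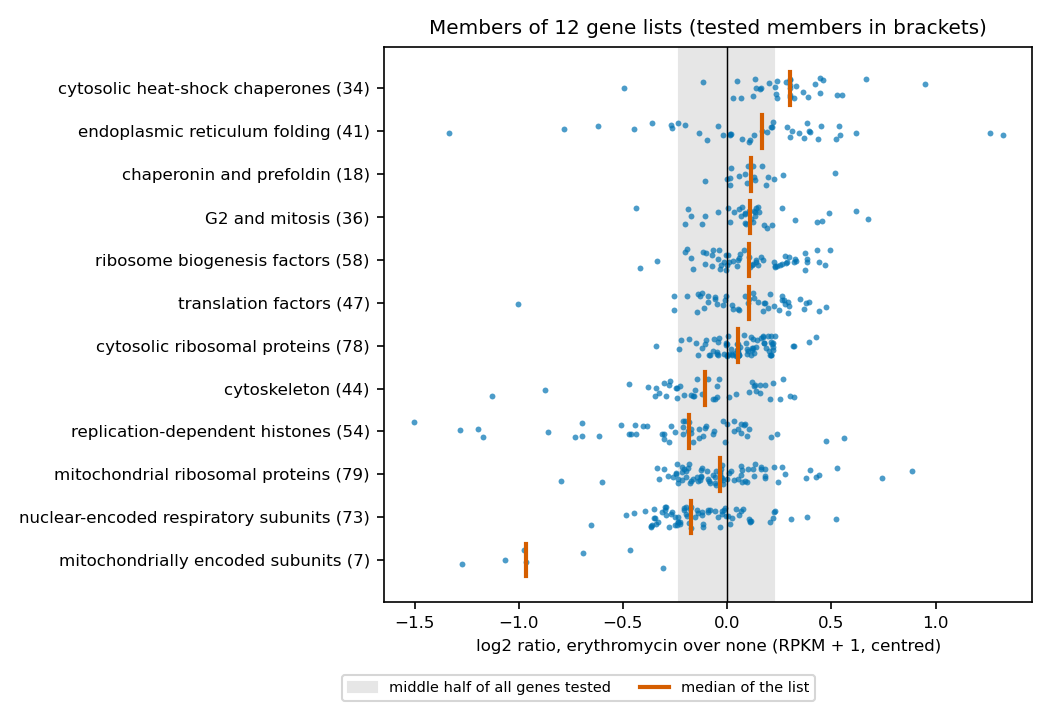
Log2 ratio (RPKM + 1, centred) of every tested member of the gene lists shown, 1 point a gene, with the median of each list as a bar and a grey band between the quartiles of all tested genes (−0.23 and 0.22). Heat-shock chaperones lie around 0.30, nuclear-encoded respiratory subunits around −0.17 and mitochondrially encoded subunits around −0.96.

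Histone genes were lower in the erythromycin library. Of 54 tested replication-dependent histones 40 lay below 0, with a median of −0.19 and the interval below 0 for 28 (51.9%) and above 0 for 7. In the best-read quintile of genes the share below 0 was 23.2%. Centring within quintiles of coding GC content brought the median to −0.11. Histone H3 genes lay below 0 in 10 of 10 with a median of −0.37, and HIST1H3B stood at 12365 RPKM without and 10084 RPKM with the drug (−0.28 [−0.32, −0.25]). H4 genes lay evenly around 0, with HIST1H4C at −0.10 [−0.14, −0.06], and the linker histones HIST1H1E and HIST1H1C stood at −0.02 [−0.05, 0.01] and 0.09 [0.05, 0.12]. HIST1H2BK stood below the H2B median of −0.18, at 4460.2 RPKM without and 2888 RPKM with the drug (−0.61 [−0.68, −0.55]). Histone copies are near-identical, so their values depend on how the authors assigned shared reads. Genes of DNA replication, which peak in the same phase of the cell cycle, had a median of −0.02, with 26 of 49 below 0. The interval lay below 0 in 12 of these genes (24.5%) and above 0 in 9 (18.4%). Members ranged from −0.90 to 0.80, and RRM2 and MCM7 stood at 0.18 [0.09, 0.26] and 0.24 [0.16, 0.33]. Genes of G2 and mitosis lay above 0 in 29 of 36 with a median of 0.11. Their interval lay above 0 in 9 (25%, against 26.4% of the best-read quintile), a share near that background. It lay below 0 in 4 (11.1%, against 23.2%). They ranged from CENPA at −0.44 [−0.87, −0.02] to CDC25C at 0.67 [0.33, 1.07], and TOP2A stood at 0.33 [0.22, 0.44].

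Most tubulins were lower, as were the actins ACTB and ACTG1. The wider list of actin and its partners was split. Of its 33 tested genes 14 lay above and 19 below 0, with 9 intervals above and 11 below, and the median was −0.06. Of 11 tested tubulins 9 lay below 0, 7 of them with an interval below 0, and TUBB and TUBA1B stood at −0.18 [−0.22, −0.13] and −0.24 [−0.32, −0.15]. ACTB stood at 4799 RPKM without and 3743 RPKM with the drug (−0.35 [−0.38, −0.31]) and ACTG1 at 3353 RPKM without and 2397 RPKM with the drug (−0.47 [−0.51, −0.43]). Both were among the 10 largest losses of reads scaled to library size, with GAPDH, the glycolytic enzyme, which stood at 7475 RPKM without and 5945 RPKM with the drug (−0.32 [−0.35, −0.29]). The glycolytic enzymes as a set lay on both sides, 8 above and 8 below 0, and ENO1 stood at 3837 RPKM without and 4497 RPKM with the drug (0.24 [0.21, 0.28]). ACTB, ACTG1, GAPDH, ENO1 and tubulins have close relatives or processed pseudogenes in the genome.

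Genes of the translation machinery stood slightly higher. EEF1A1, the most-read transcript of both libraries and the factor that brings tRNA to the ribosome, stood at 6751 RPKM without and 8024 RPKM with the drug (0.26 [0.24, 0.29]), a gain of 1768 RPM (reads scaled to the size of the library), second to the 1828 of DBP. DUXAP10, a pseudogene transcript with the next largest gain of 878 RPM, stood at 1448 RPKM without and 2836 RPKM with the drug (0.98 [0.91, 1.05]), and in the mutant pair at 18121 and 90.6 RPKM, where the untreated library was the high one. The 47 translation factors had a median of 0.11, or 0.04 when centred within quintiles of GC content. Elongation and termination factors had a median of 0.15 over 13 genes, with EEF2 at 0.15 [0.11, 0.19] and the kinase that inhibits it, EEF2K, at −1.01 [−1.99, −0.44] on 56 and 21 reads. Cytosolic ribosomal proteins had a median of 0.05, and centring on these genes themselves would set it to 0. These proteins had an interval above 0 in 39 of 78 (50%, against 26.4% of the best-read quintile of genes). The interval lay below 0 in 13 of these proteins (16.7%, against 23.2%). They ranged from RPS2 at −0.34 [−0.41, −0.28] to RPL7 at 0.43 [0.37, 0.49], intervals that do not overlap, and many of these genes have processed pseudogenes that can share their reads. Ribosome biogenesis factors had a median of 0.11 over 58 genes. The interval lay above 0 in 16 of them (27.6%), near the 26.4% of the best-read quintile. It lay below 0 in 1 (1.72%, against 23.2%). The nucleolar proteins NPM1 and NCL stood at 0.37 [0.32, 0.42] and 0.43 [0.36, 0.50]. Aminoacyl-tRNA synthetases centred on 0.00, with 5 intervals above and 4 below.

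Among RNA-binding proteins the hnRNPs, which coat nuclear transcripts, lay above 0 in 18 of 21. The interval lay above 0 in 12 (57.1%, against 26.4% of the best-read quintile of genes) and below 0 in none. HNRNPA1 stood at 797 RPKM without and 1092 RPKM with the drug (0.47 [0.39, 0.54]) and HNRNPA2B1 at 1631 RPKM without and 1989.6 RPKM with the drug (0.30 [0.24, 0.35]), while core spliceosome proteins had a median of −0.01. In the proteasome the catalytic core had a median of −0.08 with 9 of 13 below 0, and the regulatory particle that feeds it a median of 0.13 with 14 of 18 above 0. PSMD14, the deubiquitinase of the regulatory particle, stood at 0.47 [0.28, 0.66], and PSMA6 of the core at −0.64 on 202 and 110 reads. The p53 targets and the NRF2 and antioxidant genes both had medians of −0.05, with counts of intervals on either side of 4 and 4 among 23 genes and of 4 and 8 among 28.

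Transcripts read in 1 library only were thin. There were 1062 seen only with erythromycin and 944 seen only without, with a median of 1 read, and at most 60 and 14 reads. USP29 had 0 reads without and 60 with the drug, which is at least 23.2-fold higher when 3 reads are taken as the limit of a 0. CYP11B2, the aldosterone synthase, had 0 and 50 reads (at least 19.3-fold higher), GYG2 0 and 21 (at least 8.12-fold) and ZNF366 0 and 18 (at least 6.96-fold). In the opposite direction the granin CHGB had 14 and 0 reads (at least 4.02-fold lower), the sodium channel SCN2A 12 and 0 (at least 3.45-fold lower) and CHGA 10 and 0 (at least 2.87-fold lower).

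The ratios varied with coding GC content. Over quintiles of coding GC content the median fell in order from 0.08 in the lowest quintile through 0.04, 0.01 and −0.06 to −0.08 in the highest (Pearson r −0.13, Spearman rho −0.16 across 9162 genes, which are not independent replicates). In the lowest quintile 313 genes had an interval above 0 and 158 below, and in the highest 158 above and 374 below. This span is as wide as several of the list medians above. Centring within quintiles took the median of G2 and mitosis genes from 0.11 to 0.07 and that of immediate early genes from 0.17 to 0.25. Coding length had an r of −0.04. By chromosome the medians of nuclear genes lay between −0.05 and 0.08, and the mitochondrial chromosome stood apart at −0.96. The share of genes beyond 2-fold was 9.10% in the quintile with the fewest reads and 1.19% in the quintile with the most.

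Of proteins known to bind, move or metabolize macrolides, 3 of 16 were tested. ABCB1, the P-glycoprotein exporter, stood at 6.06 RPKM without and 8.96 RPKM with the drug (0.51 [0.11, 1.05]), ABCC1 at −0.11 [−0.49, 0.24] and POR, the electron donor of cytochrome P450 enzymes, at −0.06 [−0.31, 0.17].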

How the data were processed

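Ribosome footprints were measured in 4 libraries of HEK293 cells, 1 for each genotype and treatment, and the 2 labelled wild type were compared. The deposited values are RPKM per transcript, per the labels and the values themselves. Reads were trimmed with cutadapt and aligned with STAR to GRCh38, per the submitters' processing notes; the counter, its annotation and its use of strand were not given in the sources used here. Transcript names were matched to GENCODE release 29 (15367 matched, 106 did not), and an absent transcript was set to 0.

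Reads were recovered from RPKM and coding length, and 99.2% of values came out whole within 0.001 reads in each wild type library. For 212 transcripts, 134 of them tested, the length itself was solved as the shortest that gave whole reads in every library. On 1000 transcripts of known length this solving was right for 92.9%, so reads and intervals of the solved transcripts are less certain. Ratios are log2(RPKM + 1), centred on the median of genes averaging 5 RPKM or more in these libraries (a shift of −0.013). Intervals are exact conditional binomial (Clopper-Pearson) intervals of the read ratio at 95%, centred alike. With 1 library a group no test across genes was run and no p-value is given. Nothing in the labels says whether libraries came from separate cultures. The computation was checked on simulated data. Python 3.11.15, numpy 2.4.6, pandas 2.3.3, scipy 1.17.1 and matplotlib 3.10.9 were used. Promoter windows are RefSeq's (GRCh38.p14).

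Genes named are RPL4, the 12 transcripts with the highest lower end and the 12 with the lowest upper end of the interval (mean of at least 20 RPKM and 50 reads), the 5 on each side with most reads against 0, the 10 most-read and the 10 with the largest gain or loss of reads scaled to library size (RPM), and per list the 4 most-read members with the highest and the lowest. Other members named were chosen for their role after their values were seen. Members and lists were chosen with earlier results of these data known. Alternatives tried were other pseudocounts, filters, scalings and a stricter interval. Some genes that the rule names are not reported here.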

Additional observations from a re-analysis of the deposited data

Results flagged for a closer look

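In 11 gene lists the summed reads moved one way with erythromycin in the wild type pair and the opposite way in the mutant pair, with the counting interval of the sum clear of 0 in both and the list median on the same side as the sum. The difference was not tested, since there is 1 library a group, and the mutant libraries were shallower. Differences below are the mutant log2 ratio minus the wild type one.

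Heat-shock chaperones had the lowest difference, −0.52, from 0.32 in wild type to −0.20 in the mutant. Folding genes of the endoplasmic reticulum differed by −0.35 (0.25 and −0.10), and chaperonin and prefoldin by −0.31 (0.15 and −0.16). Ribosome biogenesis factors differed by −0.39 (0.21 and −0.18), spliceosome and mRNA-binding proteins by −0.29 (0.12 and −0.18) and genes of G2 and mitosis by −0.29 (0.10 and −0.19). Translation factors differed by −0.21 (0.15 and −0.06), and cytosolic ribosomal proteins by −0.13 (0.07 and −0.06).

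In the opposite sense, cholesterol and fatty acid genes differed by 0.27, from −0.06 in wild type to 0.21 in the mutant. The Fanconi list differed by 1.30 (−0.88 and 0.42), and the ciliary dynein list by 2.25 (−1.97 and 0.28). In the untreated wild type library USP1 held 4795 of the 7648 reads of the Fanconi list and CCDC151 3837 of the 4644 of the ciliary list.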

How the results depend on the processing

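Medians of 37 gene lists were computed under 10 alternatives; of 370 values 369 stayed within the median counting interval of the list's members, and none reversed a median clear of 0. The exception, cytosolic ribosomal proteins centred on themselves, is 0 by construction. The median ranged from −1.02 to −0.94 for mitochondrially encoded subunits, from −0.23 to −0.14 for nuclear-encoded respiratory subunits, from 0.25 to 0.30 for heat-shock chaperones and from 0.11 to 0.20 for folding genes of the endoplasmic reticulum. Some other lists changed sign. Interferon-stimulated genes went from 0.09 to −0.39 at 20 RPKM or more and −0.69 at 100 reads or more (6 and 5 genes left), KRAB zinc fingers from 0.10 to −0.39 (1 gene left) and Fanconi genes from −0.13 to 0.05 (7 left) at 20 RPKM or more. Over all alternatives p53 targets ranged from −0.10 to 0.11, glycolytic enzymes from −0.08 to 0.01 and lysosome genes from −0.05 to 0.02. Of 318 values for 53 named genes 255 stayed within the interval and 63 moved further. A change of sign was counted only for genes at least 2-fold from the median, and none of those reversed. Changes of sign among smaller ratios were not counted.

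The counts of genes beyond 2-fold, 136 higher and 141 lower, depend on how low values are handled. They were 73 and 44 with a pseudocount of 5 RPKM, 463 and 462 of 15473 transcripts with no filter, 56 and 37 among genes averaging 20 RPKM or more, and 62 and 37 with at least 100 reads. Requiring the whole interval beyond 1.5-fold left 95 higher and 69 lower. Centring within quintiles of GC content, added after seeing the data, gave 134 and 135. Scalings shifted the median of all genes by −0.013, −0.014 and −0.054. No paired analysis was possible because each group has 1 library. The median half-width of a gene's interval, 0.41, limits what a single gene can show.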

Other observations

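Some gene groups outside the comparisons above are given here as values. Genes of nonsense-mediated decay, which removes transcripts with early stop codons, lay above 0 in 12 of 17 with a median of 0.21, and SMG9 stood at 0.95 [0.56, 1.44]. UPF1, the central helicase, stood at 47.5 RPKM without and 50.4 RPKM with the drug (0.10 [−0.09, 0.29]). Among polyamine genes AZIN1, the antizyme inhibitor, stood at 20.8 RPKM without and 35.1 RPKM with the drug (0.74 [0.36, 1.19]) and ODC1, the rate-limiting enzyme, at −0.08 [−0.21, 0.05]. Ribosome quality control genes had a median of 0.08, with ASCC2 at −0.63 [−0.77, −0.51] and CNOT4 at 0.64 [0.13, 1.28], both sensors or processors of collided ribosomes. The proteins that insert selenocysteine lay below 0 in 4 of 5 with a median of −0.43, on few reads: 1 interval lay below 0 (TRNAU1AP, −0.50 [−0.97, −0.06]) and 1 above (PSTK, 0.77 [0.14, 1.53]). The selenoproteins themselves had a median of −0.03.

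Lysosomal proteins had a median of 0.16, with the interval above 0 in 9 of 27 and below 0 in 3, while autophagy genes had a median of −0.12 over 20. PSAP, the precursor of the saposins, stood at 252 RPKM without and 281 RPKM with the drug (0.17 [0.05, 0.29]) and the autophagy receptor SQSTM1 at 232 RPKM without and 326 RPKM with the drug (0.50 [0.38, 0.63]). Of 15 tested interferon-stimulated genes 4 had an interval below 0 and 1 above, with IFITM2 at −1.31 [−1.87, −0.83]. Of the ciliary dynein genes LRRC6, an assembly factor, stood at 33.0 RPKM without and 82.4 RPKM with the drug (1.31 [1.04, 1.64]), on the other side of 0 from CCDC151.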
